A study of Homo sapiens with 20 samples.

Results

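The genes described here are 4 transcriptional targets of p53 (CDKN1A, MDM2, GDF15 and TP53I3) and the inhibitors of cyclin-dependent kinases (CDKs) of the CIP/KIP and INK4 families, CDKN1B, CDKN1C, CDKN2A, CDKN2B and CDKN2C, with CDKN1A, which encodes p21, belonging to both sets. They are 9 of the 18305 genes in the expression table. They were chosen by name, and in part because the CDKN1A level was far lower in bortezomib-resistant L363 cells than in their parental cells. For that reason bortezomib-resistant L363 values are given below as a description without a test, and so is CDKN1A in every group set against the same L363 parental libraries.

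RNA sequencing was performed on 20 libraries from 4 established human cell lines, in 10 groups of 2 biological replicates. AMO1, L363 and RPMI-8226 (labelled RPMI) are multiple myeloma lines, and ARH-77 (labelled ARH77) is a B lymphoblastoid line often used beside them. Each line was profiled as parental cells without drug (WT) and as cells adapted to the proteasome inhibitor bortezomib (BtzR). AMO1 and L363 were also profiled as cells adapted to a second proteasome inhibitor, carfilzomib (CfzR). The resistant cells were kept in 90 nM of their drug, so that resistance and continued exposure cannot be told apart, and each resistant line is a single adapted culture. Values are in FPKM, fragment counts scaled by gene length and library size, so that levels may be compared between genes.

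The protein p53 is a transcription factor that accumulates and activates its targets when DNA is damaged or cells are otherwise stressed. CDKN1A holds the cell cycle by binding cyclin-CDK complexes, MDM2 is the ubiquitin ligase that marks p53 itself for degradation by the proteasome and so closes a negative feedback loop, GDF15 is a secreted stress cytokine, and TP53I3 is a quinone oxidoreductase linked to oxidative stress. CDKN1B (p27) and CDKN1C (p57) are relatives of p21 that also bind cyclin-CDK complexes, whereas CDKN2A (p16 and, from another reading frame, p14ARF, an inhibitor of MDM2), CDKN2B (p15) and CDKN2C (p18) encode INK4 proteins that bind CDK4 and CDK6, CDKN2C being widely studied in myeloma and in plasma cell differentiation.

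The summed FPKM per library ranged from 457317 to 494850, and 10455 to 11023 genes reached 1 FPKM. Pearson's r between replicates, across genes on the log2(FPKM + 1) scale, was 0.986 to 0.998. Both libraries labelled AMO1 CfzR stood apart from their label: their r with the 6 L363 libraries was 0.986 to 0.992, and with the 4 other AMO1 libraries 0.878 to 0.883. Their comparisons are therefore given separately, against both parental lines. They also entered the SE of every fit, the ranges over all libraries and the profiles over 10 groups, and without them the number of members called was the same in each other comparison of resistant with WT cells. The 9 plasma cell markers summed to 1670 to 9270 FPKM in the myeloma libraries and to 304 to 352 FPKM in ARH-77, while the 8 B cell markers summed to 1.93 to 125 FPKM in the myeloma libraries and to 570 to 803 FPKM in ARH-77. The sums also differed between WT and resistant cells of a line. The plasma cell sum was 6970 to 8420 FPKM in AMO1 WT and 4810 to 5340 in AMO1 BtzR, and 3470 to 3750 in RPMI-8226 WT and 1670 to 1960 in RPMI-8226 BtzR. The B cell sum was 61.8 to 63.2 in AMO1 WT and 123 to 125 in AMO1 BtzR. The genes of a list did not move together. In AMO1 BtzR, 5 plasma cell markers were lower and 4 higher (median log2 difference -0.11), and 5 B cell markers were lower and 3 higher (median -0.01). In RPMI-8226 BtzR, 6 plasma cell markers were lower and 3 higher (median -0.41). The T cell and myeloid lists (6 genes each) summed to at most 14.6 and 8.56 FPKM. In AMO1 WT, CD3D, CD2, MPO and FCGR3A lay under 0.1 FPKM. Other genes of these lists were expressed there, with means of 8.7 FPKM for CD3E, 1.91 for CD3G, 1.37 for CD8A and 5.86 for LYZ. The T cell sum was 9.78 to 14.6 FPKM in AMO1 WT and 1.58 to 2.08 in AMO1 BtzR, and 9.08 to 9.10 in L363 WT, 0.88 to 1.99 in L363 BtzR and 1.04 to 1.66 in L363 CfzR. In L363 WT most of that sum was TRAT1, with a mean of 8.05 FPKM. TRAT1 was 0.13 FPKM in L363 BtzR and 0.34 FPKM in L363 CfzR. The part of these differences in the results below was not tested. Fewer cells of a given state and less RNA per cell cannot be told apart in such bulk samples.

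CDKN1A spanned the widest range of the p53 targets, from 1.16 FPKM in an L363 BtzR library to 179 FPKM in an AMO1 WT library. In L363 it was 32.8 and 36.5 FPKM in the WT libraries, 1.16 and 1.67 FPKM in the BtzR libraries and 5.33 and 6.67 FPKM in the CfzR libraries. Both resistant groups thus lay below the parental one without overlap, the bortezomib-adapted cells lowest. The mean was 24.5-fold lower in L363 BtzR (1.42 ± 0.361 FPKM, SD, n = 2) and 5.77-fold lower in L363 CfzR (6.0 ± 0.948 FPKM, SD, n = 2) than in L363 WT (34.6 ± 2.62 FPKM, SD, n = 2). On the log2(FPKM + 1) scale these differences were -3.89 and -2.35.

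None of the other members differed by 1 log2 unit in L363 BtzR on the log2(FPKM + 1) scale, which understates the change of low genes. CDKN1C was 2.0-fold lower (0.355 against 0.71 FPKM) without overlap. CDKN1B and CDKN2A were also lower and TP53I3 higher without overlap, while GDF15, CDKN2B and CDKN2C overlapped. MDM2, whose transcription also depends on p53, was 7.03 and 7.67 FPKM in L363 WT and 6.49 and 8.09 FPKM in L363 BtzR, which overlap. The other 8 differences on the log2(FPKM + 1) scale ran from -0.45 for CDKN2A to 0.32 for TP53I3. CDKN1A was thus the 1 member of 9 whose libraries did not overlap and differed by at least 1 log2 unit, against 2.1% of all tested genes; the rule used this contrast, so nothing is read from that count. In L363 CfzR, where the 8 members other than CDKN1A were tested, 0 were called (adjusted p under 0.05 by limma and a difference of at least 1 on the log2(FPKM + 1) scale), against 1.93% of all 13089 tested genes. Their adjusted p-values were between 0.284 and 1.0, and 0 of the 8 had an unadjusted p under 0.05.

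**Figure D1:**
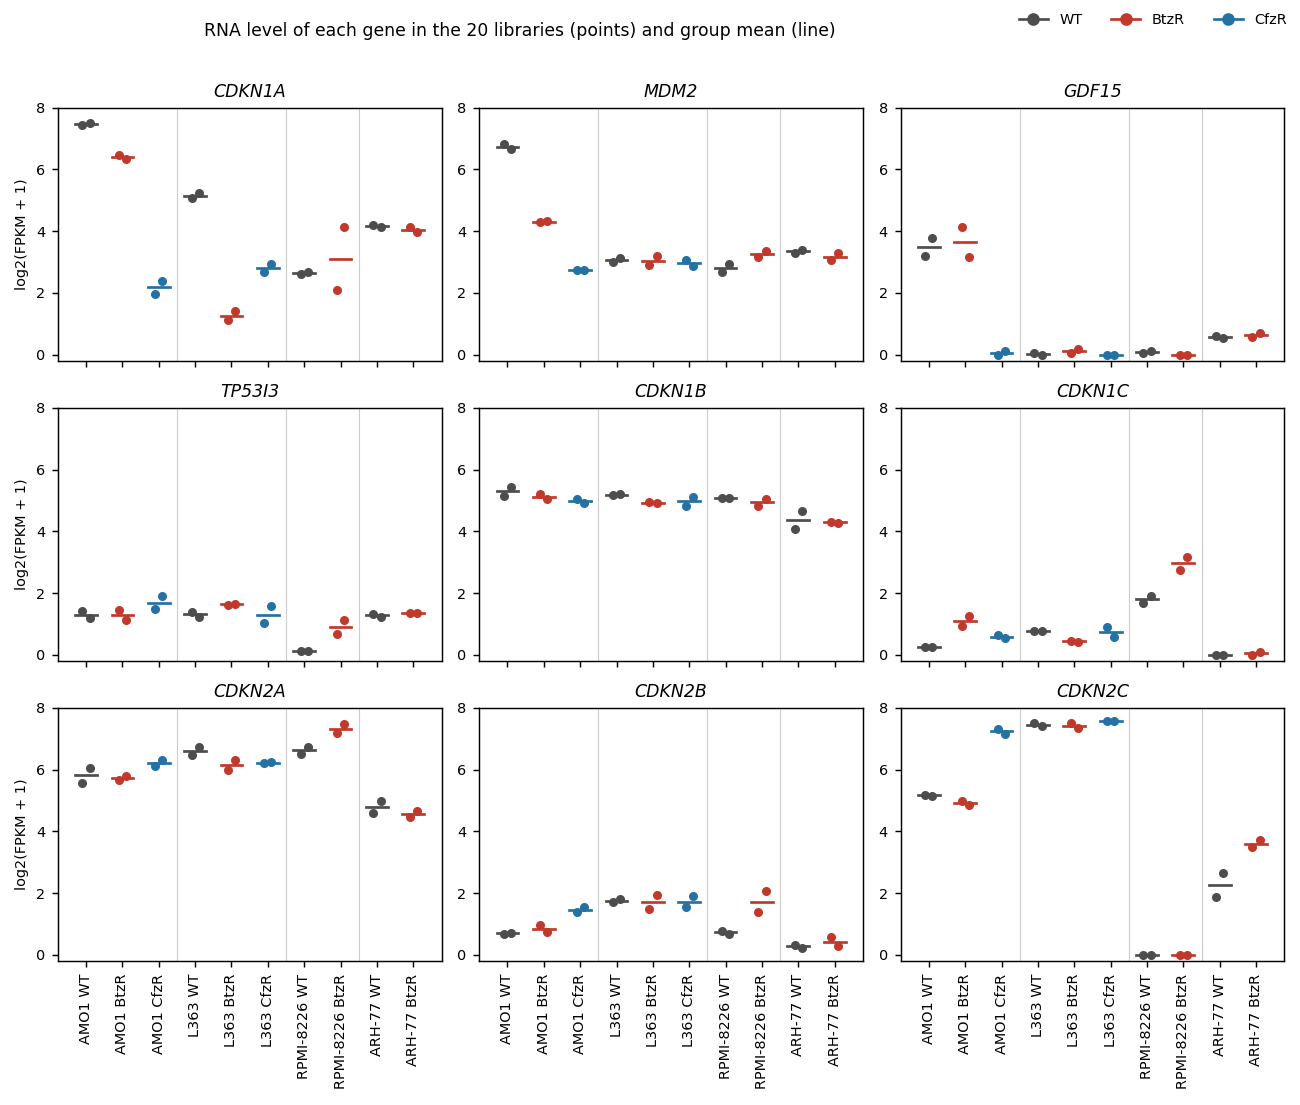
Level of each of the 9 genes as log2(FPKM + 1), vertical axis, in the 20 libraries by group, horizontal axis; points are libraries, lines are group means of 2 libraries, and colors mark WT, BtzR and CfzR. CDKN1A and MDM2 were highest in the AMO1 WT libraries, GDF15 exceeded 1 FPKM in AMO1 WT and BtzR alone, and CDKN2C was listed at 0 in all 4 RPMI-8226 libraries.

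AMO1 parental cells held the highest levels of both CDKN1A and MDM2 in the series, and both fell in AMO1 BtzR. CDKN1A was 174 and 179 FPKM in AMO1 WT and 88.2 and 79.4 FPKM in AMO1 BtzR. The resistant libraries were both lower, but they remained above every library of the other lines. This was a 2.11-fold lower mean, with a log2 difference of -1.07 (SE 0.41, adjusted p = 0.0394 by limma). The call lay at the threshold and was lost when any of the 4 AMO1 libraries was left out (adjusted p = 0.0958 to 0.144 by limma), and also with a smaller pseudocount or without the filter on low values. The SE of CDKN1A draws on all groups, and its replicates differed most in RPMI-8226 BtzR, by 2.03 on the log2 scale; fitted on the compared libraries alone, the adjusted p was 0.00461 by limma.

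MDM2 fell further. Its level was 111 and 101 FPKM in AMO1 WT and 18.4 and 18.9 FPKM in AMO1 BtzR, and it lay between 5.36 and 9.57 FPKM in all 14 libraries of the other 3 lines. The mean dropped 5.67-fold from 106 ± 7.42 to 18.7 ± 0.368 FPKM (SD, n = 2 each), with a log2 difference of -2.44 (SE 0.12, adjusted p = 9.0e-10 by limma). CDKN1A and MDM2 were the 2 members of 9 called in AMO1 BtzR, where 9.18% of all tested genes were called and 4.57% were called lower.

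MDM2 has a promoter in its first intron that p53 binds, and it is shown here because MDM2 was the member with the strongest called loss in a bortezomib-resistant line. The RefSeq promoter table (GRCh38.p14) covers 8 of the 9 genes. Its windows for the 250 bases before each start were searched for the p53 consensus, a tandem pair of 10-base half-sites, on both strands, with the C and G of each core kept, at most 2 mismatches and a spacer of at most 13 bases. A match was found in 2 of the 14 windows of these genes, both of MDM2 and overlapping, and in 875 of all 35116 windows (2.49%). Bases outside these windows were not searched, so a gene without a match may hold a site elsewhere. The MDM2 window, chr12:68808767-68809016 on the plus strand, is printed 5′ to 3′ with the matched site in capitals, 74 bases before the start:
MDM2: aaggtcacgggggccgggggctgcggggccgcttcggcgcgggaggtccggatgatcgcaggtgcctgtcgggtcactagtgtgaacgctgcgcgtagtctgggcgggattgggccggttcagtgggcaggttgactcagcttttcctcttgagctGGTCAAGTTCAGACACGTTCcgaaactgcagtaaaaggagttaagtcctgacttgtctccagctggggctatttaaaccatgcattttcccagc
The site lies at chr12:68808923-68808942 and has 2 mismatches to the consensus. Among 34 other p53 targets, 27 had a window and 3 had a match (AEN, FAS and FDXR). A match is a description of letters and not evidence of binding in these cells.

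Genes beside MDM2 on chromosome 12 differed in the same direction. NUP107, a nuclear pore gene 2 protein-coding genes away in the RefSeq order, was 46.8 and 40.9 FPKM in AMO1 WT and 18.1 and 17.8 FPKM in AMO1 BtzR, a log2 difference of -1.24 (SE 0.08, adjusted p = 9.4e-09 by limma). The comparison was therefore widened, after these values had been seen, to the 15 tested protein-coding genes on each side of every member. Of the 30 neighbors of MDM2, 29 were lower in AMO1 BtzR than in AMO1 WT and 14 were called lower. PTPRB, called lower, and IFNG, lower but not called, passed the filter on low values through AMO1 WT alone. Both are counted here as a description. Of all tested genes, 50.3% lay below 0 and 4.57% were called lower. The median log2 difference of the neighbors was -0.93, against -0.39 over the 688 other tested genes of the chromosome. Examples are RAP1B, a small GTPase gene (244 and 233 against 66.1 and 58.9 FPKM), and CCT2, a chaperonin subunit gene (485 and 449 against 201 and 201 FPKM). MDM2 lay outside the range of its neighbors, which ran from -1.92 for RAP1B to 0.18 for BEST3.

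The same stretch was high in parental AMO1. Against RPMI-8226 WT, 15 of the 30 neighbors were called higher in AMO1 WT and 2 lower (median 0.95), where 21.9% of all tested genes were called. Against ARH-77 WT 11 were called higher and 3 lower (median 0.87), where 24.3% of all tested genes were called. PTPRB, counted as higher in both contrasts, and IFNG, counted as higher against ARH-77 WT, passed the filter through AMO1 WT alone. Around CDKN1A on chromosome 6, by comparison, 0 of 30 neighbors were called higher and 2 lower in AMO1 BtzR, with 22 below 0 and a median of -0.24. SRSF3, which adjoins CDKN1A, was among those not called. The genes that adjoin MDM2, SLC35E3 (-0.46) and CPM (-0.30), were likewise not called in AMO1 BtzR. Below 0 in AMO1 BtzR were also 24 of 30 neighbors of CDKN2C (median -0.30) and 23 of 30 of GDF15 (median -0.22). Around TP53I3, CDKN1B, CDKN2A and CDKN2B 17 to 19 of 30 lay below 0, and around CDKN1C 6 of 30 (median 0.29). The part of the neighborhood in the MDM2 difference was not tested.

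**Figure D2:**
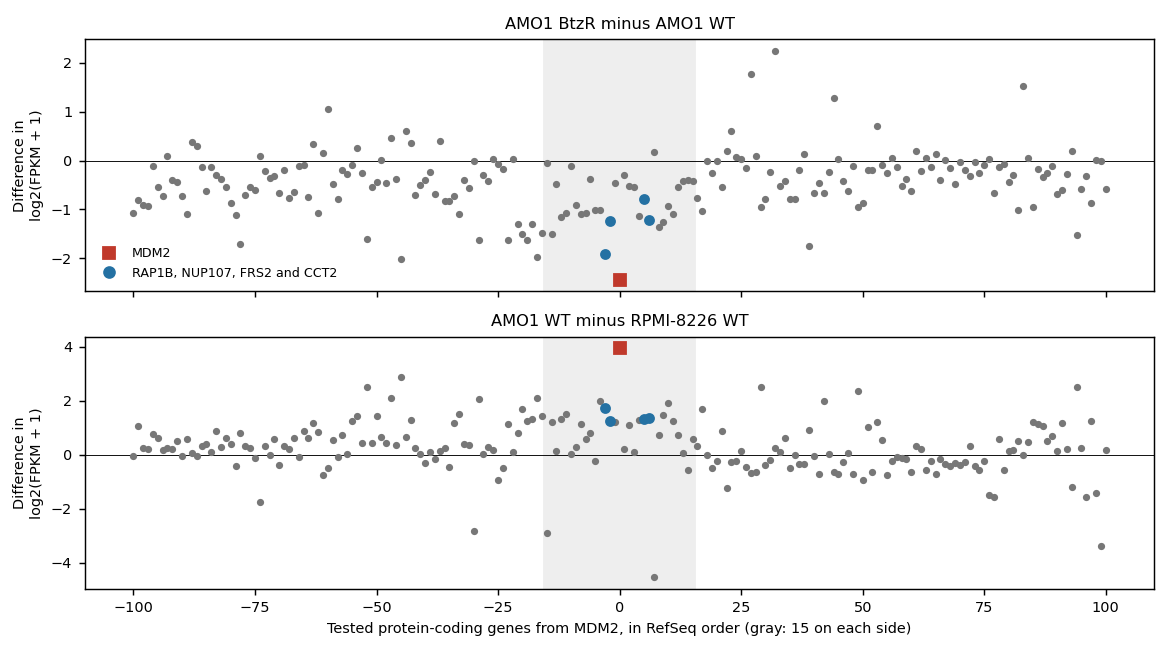
Difference in log2(FPKM + 1), vertical axis, for tested protein-coding genes within 100 places of MDM2 in the RefSeq gene order, horizontal axis, for AMO1 BtzR minus AMO1 WT (top) and AMO1 WT minus RPMI-8226 WT (bottom). Each point is a gene; MDM2 (square) lies at -2.44 and 3.94, and the 15 neighbors on each side (gray band) have medians of -0.93 and 0.95.

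GDF15 exceeded 1 FPKM in no other line than AMO1, and it did not follow CDKN1A or MDM2 in AMO1 BtzR. It was 8.19 and 12.6 FPKM in AMO1 WT and 16.4 and 8.02 FPKM in AMO1 BtzR, and these overlap (log2 difference 0.16, SE 0.22, adjusted p = 0.586 by limma). In ARH-77 it lay between 0.46 and 0.62 FPKM, and in L363 and RPMI-8226 it was at most 0.13 FPKM and listed at 0 in 5 libraries. TP53I3 was low everywhere, at 0.08 to 2.13 FPKM outside the AMO1 CfzR libraries. Its lowest level was in RPMI-8226 WT, with 0.08 FPKM in both libraries, and it was 0.58 and 1.18 FPKM in RPMI-8226 BtzR. This difference passed the p threshold (adjusted p = 0.00255 by limma) at 0.78 on the log2(FPKM + 1) scale, below the fold threshold that this scale sets for so low a gene.

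In RPMI-8226 BtzR the replicates of CDKN1A disagreed. Its level was 5.14 and 5.41 FPKM in RPMI-8226 WT, and 3.27 and 16.4 FPKM in RPMI-8226 BtzR, on either side of the parental libraries. The log2 difference was 0.46 (SE 0.41, adjusted p = 0.365 by limma), and it was -0.56 without BtzR replicate 2 and 1.48 without BtzR replicate 1, so no direction is given. MDM2 was 5.36 and 6.60 FPKM in RPMI-8226 WT and 8.02 and 9.20 FPKM in RPMI-8226 BtzR, a log2 difference of 0.46 that passed the p threshold (adjusted p = 0.00463 by limma) and not the fold threshold. In ARH-77 BtzR neither was called: CDKN1A was 17.4 and 16.7 FPKM in WT and 16.6 and 14.7 FPKM in BtzR, and MDM2 was 8.73 and 9.57 FPKM in WT and 7.40 and 8.71 FPKM in BtzR.

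**Figure D3:**
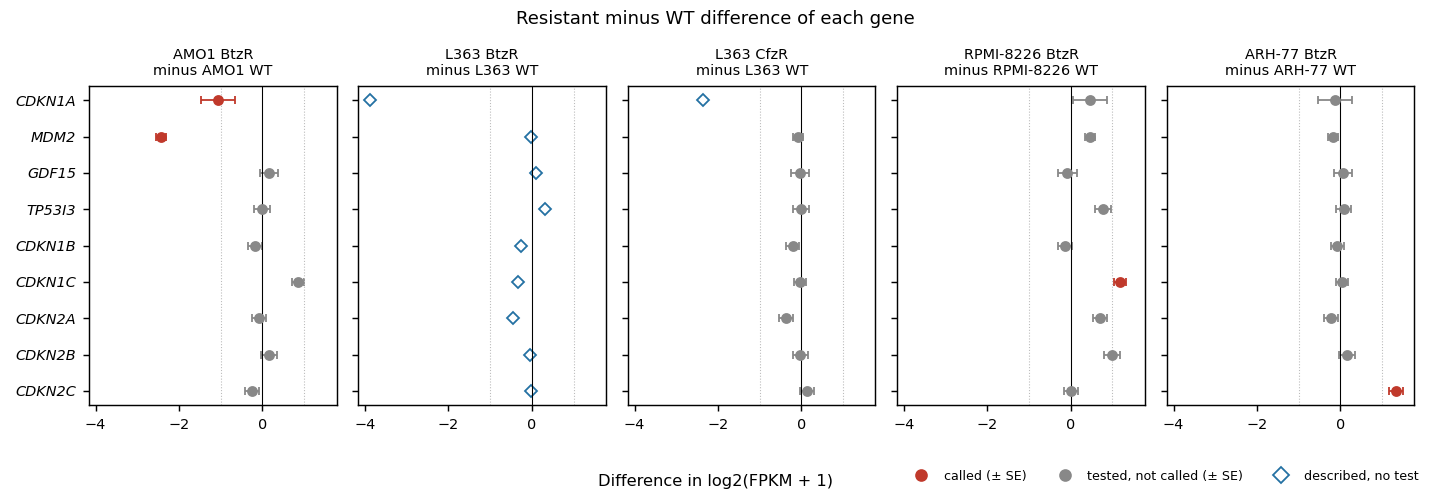
Resistant minus WT difference in log2(FPKM + 1), horizontal axis, of each gene, vertical axis, in 5 comparisons; bars are the SE of the fit, dotted lines mark a difference of 1 in either direction, and open diamonds were not tested. The called genes were CDKN1A and MDM2 in AMO1 BtzR, CDKN1C in RPMI-8226 BtzR and CDKN2C in ARH-77 BtzR.

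The other p53 targets differed from parental cells mostly by less than 1 log2 unit. Of 34 listed, 33 passed the filter on low values, and 22 of these had an adjusted p under 0.05 in AMO1 BtzR by limma, before the fold threshold, against 51.2% of all tested genes. With the fold threshold 3 of them fell and 1 rose, where 9.18% of all tested genes were called, with a median log2 difference of -0.38 and 23 of 33 below 0, while the median of all tested genes was -0.00 and 50.3% lay below 0. Those that fell were TNFRSF10B, a death receptor gene (-1.06), PPM1D, a phosphatase gene that limits p53 signaling (-1.03), and SFN, the 14-3-3 sigma gene (-1.02). CCNG1, which encodes cyclin G1, rose instead, from 72.9 and 89.8 FPKM in AMO1 WT to 235 and 198 FPKM in AMO1 BtzR (log2 difference 1.40, SE 0.28, adjusted p = 7.0e-04 by limma). Its libraries do not overlap, and its direction was opposite to that of CDKN1A and MDM2. The count of other p53 targets called was 2 instead of 4 without AMO1 WT replicate 1.

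In L363 CfzR, FAS, the gene of a death receptor, fell and 0 other p53 targets were called by limma, where 1.93% of all tested genes were called. Before the fold threshold, 3 of the 33, FAS included, had an adjusted p under 0.05 by limma, against 8.47% of all tested genes. An unadjusted p under 0.05 was found for 4 of the 33, a share not counted over all tested genes. FAS was 3.25 and 3.60 FPKM in L363 WT, 0.64 and 1.08 FPKM in L363 CfzR (log2 difference -1.26, SE 0.16, adjusted p = 9.1e-05 by limma) and 0.60 and 0.91 FPKM in L363 BtzR. FAS thus had the same order of groups as CDKN1A between WT and both resistant cultures, which share their WT libraries. When L363 CfzR and WT were fitted alone, the FAS call was lost, and 9 of the 33 targets had an unadjusted p under 0.05 by limma and 0 an adjusted p under 0.05. Its RefSeq window, at chr10:88991181-88991430 on the plus strand, holds overlapping matches to the p53 consensus, shown in capitals to set beside the MDM2 site and ending 97 bases before the start:
FAS: GGACAAGCCCTGACAAGCCAAGCCA
The median of the 33 targets was -0.18 in L363 CfzR and, as a description, -0.10 in L363 BtzR.

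RPMI-8226 BtzR showed both directions among the other p53 targets, and ARH-77 BtzR showed no call. In RPMI-8226 BtzR, TNFRSF10B (1.32) and the growth arrest gene GADD45A (1.05) rose, and PLK3, a polo-like kinase gene (-1.44), and BTG2, an antiproliferative gene (-1.29), fell, with a median of 0.25 over 33 genes against 0.05 over all tested genes. These 4 calls of 33 stand beside 13.8% of all tested genes called. The calls were 7 instead of 4 without RPMI-8226 BtzR replicate 1. TNFRSF10B was 6.42 and 6.91 FPKM in RPMI-8226 WT and 14.02 and 23.3 FPKM in RPMI-8226 BtzR, the reverse of its direction in AMO1. In ARH-77 BtzR 0 of 33 were called by limma, against 1.6% of all tested genes, with a median of -0.10 against -0.04 over all tested genes. Before the fold threshold 4 of the 33 had an adjusted p under 0.05 by limma, against 13.6% of all tested genes. An unadjusted p under 0.05 was found for 9, a share not counted over all tested genes. More of the 33 were called without ARH-77 WT replicate 1.

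**Figure D4:**
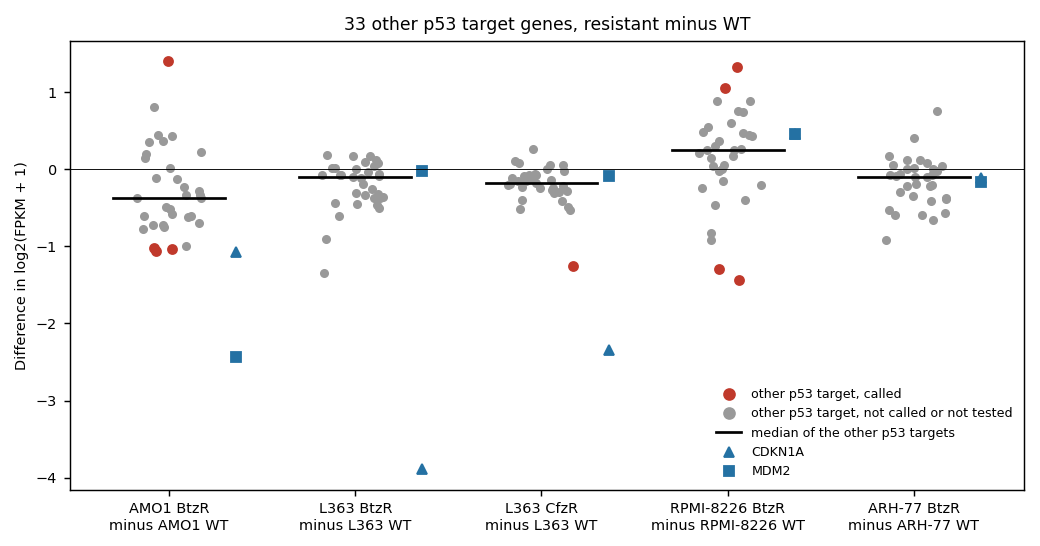
Resistant minus WT difference in log2(FPKM + 1), vertical axis, of 33 other p53 targets in 5 comparisons, horizontal axis; points are genes, red where called, lines are medians, and the triangle and square are CDKN1A and MDM2. The medians are -0.38, -0.10, -0.18, 0.25 and -0.10 from left to right; L363 BtzR was not tested.

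Among the CIP/KIP genes, CDKN1B varied least of all 9 members. It lay between 27.4 and 42.0 FPKM in the 14 libraries of AMO1, L363 and RPMI-8226 other than AMO1 CfzR, which held 29.3 and 31.9 FPKM, and between 15.7 and 24.1 FPKM in the 4 ARH-77 libraries. The span of its group means was 1.00 on the log2 scale, against 6.21 for CDKN1A, both the same with and without AMO1 CfzR, and it was called in 0 of the 4 comparisons in which it was tested within a line, leaving out the AMO1 CfzR libraries. Neighboring groups in its order overlapped, except that all AMO1, L363 and RPMI-8226 groups lay above ARH-77.

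CDKN1C was low in all lines and highest in RPMI-8226, where it rose with resistance. It was 2.18 and 2.78 FPKM in RPMI-8226 WT and 5.77 and 8.07 FPKM in RPMI-8226 BtzR, so that both resistant libraries lay above both parental ones. The mean rose 2.79-fold (log2 difference 1.18, SE 0.14, adjusted p = 6.4e-06 by limma), and CDKN1C was the 1 member of 9 called in that comparison, in which 13.8% of all tested genes were called. Without BtzR replicate 2 the difference was 0.97 and the count fell to 0. In AMO1 it was 0.18 and 0.19 FPKM in WT and 0.91 and 1.41 FPKM in BtzR, without overlap (log2 difference 0.86, SE 0.14, adjusted p = 1.7e-04 by limma). That difference lay below the fold threshold as fitted, and above it when libraries were rescaled to the same sum (1.26). The common sum exceeded that of every library as deposited, so the pseudocount also weighed less against each value. These effects of rescaling were not separated. In ARH-77 the gene was listed at 0 in 3 of 4 libraries. L363 held 0.71 FPKM in both WT libraries, 0.37 and 0.34 FPKM in BtzR and 0.88 and 0.49 FPKM in CfzR.

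The INK4 gene CDKN2A was expressed in every line, and CDKN2B was at most 3.18 FPKM. CDKN2A was 90.3 and 106 FPKM in RPMI-8226 WT and 144 and 179 FPKM in RPMI-8226 BtzR, without overlap. That difference of 0.71 (SE 0.17, adjusted p = 0.00326 by limma) passed the p threshold and not the fold threshold. CDKN2B, its neighbor on chromosome 9, was 0.72 and 0.61 FPKM in RPMI-8226 WT and 1.61 and 3.18 FPKM in RPMI-8226 BtzR (log2 difference 0.99, SE 0.19, adjusted p = 5.4e-04 by limma), just under the fold threshold, and over it without BtzR replicate 1 (1.33) or without WT replicate 1 (1.04). MTAP, on the other side of CDKN2A, was 16.6 and 16.6 FPKM in WT and 22.4 and 22.0 FPKM in BtzR, so that RNA from the locus was present in both.

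KLHL9, farther along the same chromosome region, behaved otherwise in RPMI-8226. It was 3.34 and 3.78 FPKM in WT and 0.03 and 0.04 FPKM in BtzR (log2 difference -2.14, SE 0.16, adjusted p = 3.5e-08 by limma), and it was 4.43 to 9.06 FPKM in all libraries of the other lines. In AMO1, L363 CfzR and ARH-77 neither CDKN2A nor CDKN2B was called. CDKN2A was lowest in ARH-77, at 20.9 to 30.4 FPKM. The table holds 1 value per gene, so that the p16 and p14ARF transcripts of CDKN2A are not separated. Whether counting used strand is not given in the sources used here, so reads of CDKN2A, CDKN2B and antisense RNAs of the locus cannot be told apart. The same holds for MDM2 and CPM, whose RefSeq models overlap.

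CDKN2C ranged most widely of all. It was 161 to 192 FPKM in the 6 L363 libraries, 34.5 to 35.5 FPKM in AMO1 WT, 27.9 and 30.5 FPKM in AMO1 BtzR and listed at 0 in all 4 RPMI-8226 libraries. FAF1, the adjoining gene on chromosome 1, was at most 0.11 FPKM in the RPMI-8226 libraries and 28.1 to 62.5 FPKM in all others. RNF11, on the other side, was 14.7 to 19.7 FPKM in RPMI-8226, so that the missing RNA covered CDKN2C and FAF1 but not RNF11.

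In ARH-77, CDKN2C rose with resistance. It was 2.71 and 5.23 FPKM in ARH-77 WT and 10.3 and 12.2 FPKM in ARH-77 BtzR, and the groups do not overlap. The mean rose 2.83-fold (log2 difference 1.34, SE 0.17, adjusted p = 6.5e-05 by limma), as the 1 member of 9 called where 1.6% of all tested genes were called. The difference was 0.97 without ARH-77 WT replicate 1, and in a fit of the 4 ARH-77 libraries alone the adjusted p was 0.238 by limma, a fit in which 0 of all tested genes were called and 1867 had an unadjusted p under 0.05.

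**Figure D5:**
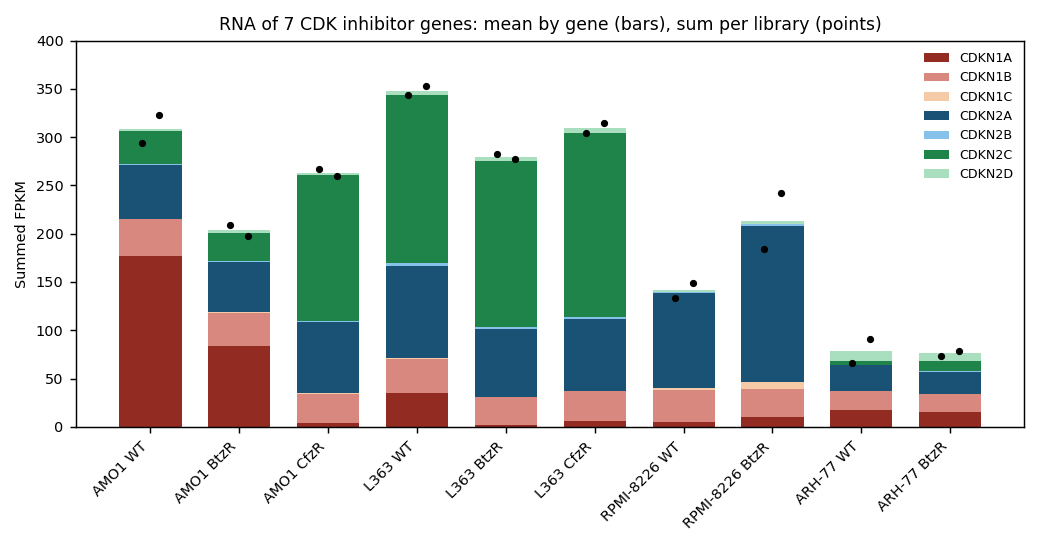
Summed FPKM, vertical axis, of 7 CDK inhibitor genes in the 10 groups, horizontal axis; bar segments are group means by gene and black points are the sums of the 2 libraries. CDKN1A takes 57.3% of the sum in AMO1 WT, CDKN2C 50.2% in L363 WT and CDKN2A 69.4% in RPMI-8226 WT.

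The most abundant CDK inhibitor transcript was CDKN1A in AMO1 WT and BtzR, CDKN2C in L363, and CDKN2A in RPMI-8226 and ARH-77. The FPKM of 7 inhibitor genes, the 6 members above and CDKN2D (p19), summed to 309 ± 20.3 in AMO1 WT, 348 ± 6.75 in L363 WT, 141 ± 11.6 in RPMI-8226 WT and 78.4 ± 17.9 in ARH-77 WT (SD, n = 2 each). CDKN1A made up 57.3% of that sum in AMO1 WT and 41.1% in AMO1 BtzR, where the sum was 204 ± 7.95 FPKM. In L363 CDKN2C led with 50.2% in WT and 61.4% in BtzR, while CDKN1A accounted for 9.93% and 0.507%. In RPMI-8226 CDKN2A led with 69.4% in WT and 75.9% in BtzR, and in ARH-77 WT it led with 34.4%. The ratio of CIP/KIP to INK4 RNA was 2.29 in AMO1 WT and 1.39 in AMO1 BtzR, and it was below 1 in every other group. These sums describe RNA levels and were not tested.

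The parental lines differed in these genes about as often as in the table as a whole. Over AMO1, RPMI-8226 and ARH-77 WT, 8 of 9 members had an adjusted p under 0.05 in the limma F test. CDKN2B was the exception (adjusted p = 0.0663 by the same F test), and 87.0% of all tested genes passed. GDF15 is counted among the 8 as a description, since it passed the filter on low values through AMO1 alone. In pairwise contrasts, added after the data had been seen, MDM2 was 17.7-fold higher in AMO1 WT than in RPMI-8226 WT and 11.6-fold higher than in ARH-77 WT. CDKN1A was 33.5-fold and 10.3-fold higher. The higher level of GDF15 in AMO1 WT is likewise a description, because it passed the filter through AMO1 alone. Of the other p53 targets, 11 of 33 were called higher and 0 lower in AMO1 WT against RPMI-8226 WT, where 21.9% of all tested genes were called. Against ARH-77 WT, 12 were called higher, among them SESN1, and 4 lower, including FAS, where 24.3% of all tested genes were called. PHLDA3 and EDA2R, counted as higher in both contrasts, passed the filter through AMO1 alone. Both contrasts share the AMO1 WT libraries.

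The effect of bortezomib resistance also differed between lines for most members. In the limma F test of the interaction over AMO1, RPMI-8226 and ARH-77, 6 of 9 members had an adjusted p under 0.05, against 67.7% of all tested genes, so that this share is close to that of the table. They were MDM2 (adjusted p = 5.7e-09), CDKN2C (adjusted p = 7.4e-05), CDKN1C (adjusted p = 5.6e-04), CDKN2A, CDKN2B and TP53I3. MDM2 fell in AMO1, whereas its differences in RPMI-8226 and ARH-77 were 0.46 and -0.17. For CDKN1A the interaction did not pass (adjusted p = 0.0751), nor did it for GDF15 (adjusted p = 0.762) and CDKN1B (adjusted p = 0.897).

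The libraries labelled AMO1 CfzR lay nearer to L363 than to AMO1 in CDKN1A, MDM2, GDF15 and CDKN2C. CDKN1A was 2.92 and 4.21 FPKM, between the levels of L363 BtzR and L363 CfzR, and 9.71-fold below L363 WT, which is a description without a test. MDM2 was 5.65 and 5.76 FPKM, and CDKN2C was 159 and 142 FPKM. Against AMO1 WT, CDKN1A and MDM2 were called lower and CDKN2C higher, 3 of the 8 members other than GDF15, where 17.1% of all tested genes were called. GDF15 (0 and 0.08 FPKM) passed the filter on low values through AMO1 alone, so no call is given for it. Of the other p53 targets 19 of 33 were called lower, and 2 of these, PHLDA3 and EDA2R, likewise passed the filter through AMO1 alone. Against L363 WT, 0 of the 8 members other than CDKN1A and 0 of 33 other p53 targets were called by limma, 2 and 7 having an unadjusted p under 0.05, and 1.66% of all tested genes were called. The share of all tested genes with an unadjusted p under 0.05 was not counted. CDKN2C shows the levels: its 142 to 159 FPKM lay near the 169 to 181 FPKM of L363 WT and far above the 34.5 to 35.5 FPKM of AMO1 WT.

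Genes with the profile most like that of each member were sought by Pearson's r over the 10 group means of log2(FPKM + 1), as a description. For CDKN1A these were STAC3 (r = 0.938), C3orf52 (r = 0.928) and C8orf58 (r = 0.926), and for MDM2 they were TMEM121 (r = 0.990), SPATA31C2 (r = 0.983) and FRS2 (r = 0.981). FRS2 is the fifth tested neighbor of MDM2 on chromosome 12. GDF15 was nearest to CHST4 (r = 0.994), and CDKN2C to PPP2R2D (r = 0.989). CDKN1C was nearest to CDR2L (r = 0.983) and JAG2 (r = 0.977), the gene of a Notch ligand. CDKN2A was nearest to TEAD3 (r = 0.978), and CDKN2B to CA8 (r = 0.978). Without the AMO1 CfzR group several of these names changed. CDKN1A was then nearest to MRPL17 (r = 0.938), STAC3 (r = 0.932) and ETFRF1 (r = 0.925), the third gene of MDM2 was SCN4A (r = 0.984) instead of FRS2, and the first was JAG2 for CDKN1C (r = 0.987), TRIM27 for CDKN2A (r = 0.982) and RNF170 for CDKN2C (r = 0.990). The points are groups of 4 lines, and groups of a line share most of their profile.

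CDK, cyclin and RB-E2F genes, a list that also holds the inhibitor gene CDKN2D, differed by at most 0.98 on the log2(FPKM + 1) scale. This holds for the comparisons named next, which leave out the AMO1 CfzR libraries. Of 21 CDK, cyclin and RB-E2F genes, 0 were called in AMO1 BtzR, L363 CfzR, RPMI-8226 BtzR or ARH-77 BtzR, with medians of 0.18, -0.02, 0.15 and -0.22. Before the fold threshold, 11, 2, 13 and 11 of them had an unadjusted p under 0.05 by limma, and 9, 0, 11 and 5 an adjusted p under 0.05, against 51.2%, 8.47%, 54.3% and 13.6% of all tested genes. Of 7 targets of ATF4 and CHOP, transcription factors of the integrated stress response, 0 were called in the same comparisons, and 1 had an unadjusted p under 0.05, in RPMI-8226 BtzR. The 14 proliferation markers summed to 1180 to 1660 FPKM over all libraries, with 1340 to 1570 in AMO1 WT and 1270 to 1340 in AMO1 BtzR, and 1260 to 1340 in L363 WT and 1180 to 1240 in L363 BtzR. They summed to 1200 to 1270 FPKM in RPMI-8226 WT and 1280 to 1380 in RPMI-8226 BtzR. In ARH-77 the sum was 1620 to 1660 FPKM in WT and 1320 to 1350 in BtzR. All 14 markers had a log2 difference below 0 there, against 59.5% of all tested genes. Their median was -0.28 against -0.04 over all tested genes, and 0 were called, where 1.6% of all tested genes were called. The 1 proliferation marker called in AMO1 BtzR was MCM7, a replication helicase subunit gene, which fell (-1.01, adjusted p = 2.3e-06 by limma). A relation of the proliferation markers to the CDK inhibitor genes was not tested.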

How the data were processed

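The labels give cell line, drug and replicate for 20 RNA-seq libraries. The authors deposited FPKM values per gene, normalized for gene length and library size. The submitters' processing notes name HISAT2 2.0.4, Bowtie2 2.2.5 and RSEM 1.2.12. Genome build, strandedness and depth are not given in the sources used here. Precision therefore rests on 2 replicates a group. The p-values measure the spread between replicates pooled over all groups, except where the compared libraries were fitted alone. An exact test of 2 against 2 libraries cannot go below p = 0.33.

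A gene was tested if any group mean reached 1 FPKM (13089 of 18305, all 9 members among them; GDF15 passed through AMO1 and CDKN1C through RPMI-8226 and AMO1 BtzR). Values were tested as log2(FPKM + 1) with limma 3.58.1 in R 4.3.3, with a mean-variance trend, 10 group means fitted over all 20 libraries (10 residual degrees of freedom) and Benjamini-Hochberg adjustment over all tested genes. A gene was called at adjusted p under 0.05 and a difference of at least 1 log2 unit. Fold changes are ratios of mean FPKM, and the log2 differences understate the change of low genes. On simulated data for AMO1 BtzR against AMO1 WT with 12791 genes, 200 of 200 genes changed by 2 log2 units were recovered, and 1 unchanged gene was called. In its interaction test 198 of the 200 passed, as did 15 unchanged genes. The changed genes lay well above the filter in AMO1 WT, and each gene had the same spread in all groups. The simulation thus says nothing of low genes, of differences near the fold threshold or of genes with unequal spread such as CDKN1A.

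The members and the gene lists were chosen with earlier results of these data known. Named genes are the members, up to 3 called genes per list and direction, and the 3 genes most alike in profile; neighbors of MDM2, BEST3, CDKN1A's neighbor SRSF3, the p53 targets named in parental contrasts and the genes alike over 9 groups were named after their values were seen. Alternatives changed the pseudocount (0.1 or 0.01 FPKM), the filter (none or 5 FPKM), the scaling, the trend, the libraries fitted and the replicate block. Promoter sequences came from RefSeq (GRCh38.p14). One gene and the list that held it are not reported here.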

Additional observations from a re-analysis of the deposited data

Results flagged for a closer look

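For 6 members the difference between bortezomib-resistant and WT cells was not the same in AMO1, RPMI-8226 and ARH-77, by the limma F test of the interaction. The adjusted p-values were 5.7e-09 for MDM2, 7.4e-05 for CDKN2C, 5.6e-04 for CDKN1C, 0.00837 for CDKN2A, 0.0201 for CDKN2B and 0.0297 for TP53I3. MDM2 fell in AMO1 BtzR (-2.44), CDKN2C rose in ARH-77 BtzR (1.34) and CDKN1C rose in RPMI-8226 BtzR (1.18). For CDKN2A, CDKN2B and TP53I3 the differences in RPMI-8226 BtzR were 0.71, 0.99 and 0.78, against -0.08, 0.16 and -0.01 in AMO1 BtzR. Since 67.7% of all tested genes passed the same test, it does not set these members apart.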

How the results depend on the processing

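Counts of called members and genes depended on the pseudocount, the libraries fitted and single libraries. With 0.1 FPKM the genes called were 1919 in AMO1 BtzR, 580 in L363 BtzR, 546 in L363 CfzR, 2722 in RPMI-8226 BtzR and 473 in ARH-77 BtzR, and with 0.01 FPKM they were 2024, 582, 517, 2845 and 465, and 3412 for the AMO1 CfzR libraries, against 1201, 270, 253, 1809, 210 and 2237. Members called in RPMI-8226 BtzR went from 1 to 3 with either pseudocount or with libraries rescaled to the same sum, and to 2 with quantile normalization. Rescaling raised every value and so also lessened the weight of the pseudocount, and these effects were not separated. Other p53 targets went from 1 to 2 in L363 CfzR with 0.1 FPKM, and from 0 to 3, 2 and 1 in ARH-77 BtzR with 0.1 FPKM, 0.01 FPKM and rescaling, which gave 318 genes there. With 0.01 FPKM the members beyond 1 log2 unit in L363 BtzR were 2. Without a filter on low values the members called in AMO1 BtzR were 1. In fits of the compared libraries alone, 0 genes and 0 members were called in ARH-77 BtzR, and 0 other p53 targets in L363 CfzR. With L363 WT as the control of the AMO1 CfzR libraries, 217 genes and 0 other p53 targets were called, 1 member (CDKN1A) lay beyond 1 log2 unit, as a description without a test, and the signs of CDKN2A (-0.38), CDKN2C (-0.22), GDF15 (0.03), CDKN2B (-0.29) and CDKN1C (-0.18) reversed.

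Leaving out a single library gave 1 to 2 called members in AMO1 BtzR, 0 to 4 in RPMI-8226 BtzR and 0 to 1 in ARH-77 BtzR. Other p53 targets called ranged from 2 to 4, 4 to 7 and 0 to 4, and genes called in ARH-77 BtzR from 199 to 343, the highest without WT replicate 1. The members with an interaction ranged from 4 to 7. Differences that changed sign were CDKN2A (-0.32 to 0.16), GDF15 (-0.31 to 0.64) and TP53I3 (-0.17 to 0.15) in AMO1 BtzR, TP53I3 (-0.28 to 0.26), CDKN2B (-0.20 to 0.15) and CDKN1C (-0.20 to 0.14) in L363 CfzR, CDKN1A (-0.56 to 1.48) in RPMI-8226 BtzR and CDKN1B (-0.36 to 0.23) in ARH-77 BtzR (tested differences, none of them called in the reported fit). The described L363 BtzR differences of CDKN2C (-0.12 to 0.06), MDM2 (-0.16 to 0.12) and CDKN2B (-0.26 to 0.18) also changed sign. The cause of these changes was not tested. Same-numbered replicates correlated in their deviations from the group means by -0.00554 in AMO1 BtzR and by 0.12 to 0.245 in the other comparisons, and no label says what a number shares, so pairing was neither assumed nor dismissed. With the replicate number as a block, 1203 genes were called in AMO1 BtzR and 2 members, and no other call of a member changed. Without the AMO1 CfzR libraries, an alternative added after seeing the data, the members called were the same number in each other comparison. Depth is unknown, so values near 0 FPKM carry no detection limit.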
